A study of Mus musculus with 48 samples.

Results

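Kupffer cells (KCs), macrophages that reside in the liver sinusoids, were compared 6 h after acetaminophen (APAP) with KCs of mice given phosphate-buffered saline (PBS). The libraries were chosen by their titles, which gave 8 of the 48 libraries in the series: 4 of KCs 6 h after APAP, 2 of KCs 24 h after PBS and 2 of KCs 0 h after PBS. A further 4 libraries of KCs 12 h after APAP serve to show the next time. All came from livers of male C57BL/6 mice with no other genotype given. The question was which genes differ in KCs at the earliest time sampled after the drug. The APAP dose, the age of the mice and the markers used to isolate KCs are not given in the sources used here. Nor is it given whether each library came from a separate animal. The p-values therefore measure the spread between libraries of a group, estimated over all 48 libraries of the series. Reads were counted per gene, with 18596552 to 23709845 counts in each of the 8 libraries, and 17080 genes had enough counts to be tested. Levels below are CPM, the counts relative to the scaled library total, and an adjusted p below 0.05 in edgeR's quasi-likelihood test is called. Fold changes are log2, 6 h over PBS, and ± gives the standard error unless SD is stated. The file headers give a running sample number and name no sets. For this report the numbers were cut after 25 to form 2 sets of libraries. Set 1 holds 6 h replicates 1 and 2 with both PBS 24 h libraries, and set 2 holds 6 h replicates 3 and 4 with both PBS 0 h libraries. What the numbers mean is not stated. Within these sets, the set and the PBS group cannot be told apart. In such bulk samples, fewer cells of a type and less RNA per cell cannot be told apart either.

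APAP is a painkiller whose reactive metabolite, formed by cytochrome P450 enzymes, depletes glutathione and kills hepatocytes when given in excess. KCs line the sinusoids next to those hepatocytes, take up dying cells, haem and iron, and release chemokines that draw in neutrophils and monocytes. Macrophages under oxidative or metal stress use a few well described transcription factors: NRF2 for antioxidant enzymes, MTF1 for metallothioneins, ATF4 for amino acid transport and NF-kappaB for chemokines and cytokines.

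Promoters of 4 genes with some of the clearest differences are shown because each holds matches to a motif of these factors. They are the 250 bases upstream of the RefSeq start on GRCm38.p6, 5′ to 3′ on the gene's strand, with matches of the motif named for that gene, on either strand, in capitals. Metal response elements, the MTF1 site TGCACNC or TGCGCNC, are marked in Mt2 (chr8:94172368-94172617, plus strand) and Mt1 (chr8:94178839-94179088, plus strand), whose products are zinc-binding metallothioneins. The ATF4 motif TGATGNAA, chosen after the sequence was seen, is marked in Slc7a11 (chr3:50443614-50443863, minus strand), which encodes the cystine importer that feeds glutathione synthesis. The NF-kappaB motif is marked in Cxcl3 (chr5:90785851-90786100, plus strand), a neutrophil chemokine.
Mt2: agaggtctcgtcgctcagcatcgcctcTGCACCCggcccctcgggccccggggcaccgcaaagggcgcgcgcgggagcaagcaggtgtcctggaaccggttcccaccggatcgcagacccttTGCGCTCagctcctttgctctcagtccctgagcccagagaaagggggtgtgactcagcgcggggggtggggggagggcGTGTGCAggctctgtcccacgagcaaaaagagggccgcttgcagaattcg
Mt1: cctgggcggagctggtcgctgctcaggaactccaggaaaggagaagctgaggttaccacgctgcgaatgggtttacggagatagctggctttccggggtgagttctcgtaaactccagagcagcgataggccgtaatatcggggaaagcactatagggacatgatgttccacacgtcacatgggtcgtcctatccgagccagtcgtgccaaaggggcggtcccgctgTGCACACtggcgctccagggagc
Slc7a11: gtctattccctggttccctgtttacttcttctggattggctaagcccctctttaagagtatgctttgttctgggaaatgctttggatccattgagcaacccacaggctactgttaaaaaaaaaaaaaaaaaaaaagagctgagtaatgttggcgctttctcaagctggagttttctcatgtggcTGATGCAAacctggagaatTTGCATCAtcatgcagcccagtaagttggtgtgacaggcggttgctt
Cxcl3: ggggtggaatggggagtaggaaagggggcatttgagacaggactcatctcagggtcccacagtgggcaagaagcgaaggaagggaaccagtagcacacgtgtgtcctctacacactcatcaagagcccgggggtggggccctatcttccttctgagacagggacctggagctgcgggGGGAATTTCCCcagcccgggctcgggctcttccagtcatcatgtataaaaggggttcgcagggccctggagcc

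Mt2 held 3 metal response elements and Mt1 held 1. The Mt2 window also held 1 match to the antioxidant response element described below, left in lower case. Of the 14 metallothionein and zinc transporter genes with a promoter, 7 held the element, against 32.7% of the 11402 tested genes with a promoter. Among these holders, Mt1 and Mt2 were called higher at 6 h and Slc39a8 lower. The holders Slc30a1, Slc30a4, Slc30a5 and Slc39a3 were not called. Slc7a11 held 2 ATF4 motifs. It belongs to the NRF2 list, where 1 of 26 promoters, its own, held this motif. The motif was in 5 of 20 integrated stress response promoters, against 2.6% of all. Cxcl3 held 2 overlapping NF-kappaB matches, and 4 of 10 CXC chemokine promoters held the motif (Cxcl1, Cxcl2, Cxcl3 and Cxcl10), against 10.3% of all. The antioxidant response element of NRF2, TGACNNNGC, was in 8 of 26 NRF2 target promoters (30.8%), against 1592 of all 11402, and not in the Slc7a11 window. These matches describe letters in the windows and were not tested as sites.

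At 6 h KCs differed from PBS in 2586 of 17080 genes (15.1%). Of these, 1661 were higher (9.72% of those tested) and 925 lower (5.42%), and 515 rose (3.02%) and 426 fell (2.49%) by 2-fold or more. Counts of called genes in the lists below stand against these shares of 9.72% and 5.42%. In 1342 genes (7.86%) all 6 h libraries were above all PBS libraries, and in 1379 (8.07%) all were below. The steepest rises among well expressed genes were in chemokines (Cxcl3, Ccl9, Cxcl2), metallothionein Mt2, and innate receptors (Trem1, Clec4d, Clec4e). The steepest falls were mostly in genes of hepatocyte metabolism (Thrsp, Car3, Cyp1a2), with Dbp, a clock output gene, and Uhrf1, a DNA replication gene, among them. The median log2 fold change over all tested genes was 0.04. The 6 h libraries were not alike: for 340 of the 515 genes that rose 2-fold, replicate 1 was the highest, and the median log2 difference from the PBS mean was 1.97, 1.40, 0.80 and 0.97 in replicates 1 to 4. The 426 falls had medians of -1.47, -1.26, -0.99 and -1.10. Without 6 h replicate 1 the genes past 2-fold were 326 higher and 219 lower. The number of calls without 6 h replicate 1 was 1610, without PBS 24 h replicate 1 was 1489, without PBS 24 h replicate 2 was 1704 and without PBS 0 h replicate 2 was 1538. It was 1751 without PBS 0 h replicate 1, and 2266, 2706 and 2549 without 6 h replicates 2, 3 and 4. List counts below with a library left out stand beside these totals. With set as a covariate the number of calls was 3042, and 99.8% of the 2586 genes were called again in the same direction. In the other settings that share ran from 38% to 98.5%. It was 57.3% without 6 h replicate 1, 56% with PBS 0 h alone as the control and 52.7% with PBS 24 h alone. With only the compared groups fitted it was 38.1%, in set 2 alone 38%, and without 6 h replicates 1 and 2 38.2%.

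**Figure D1:**
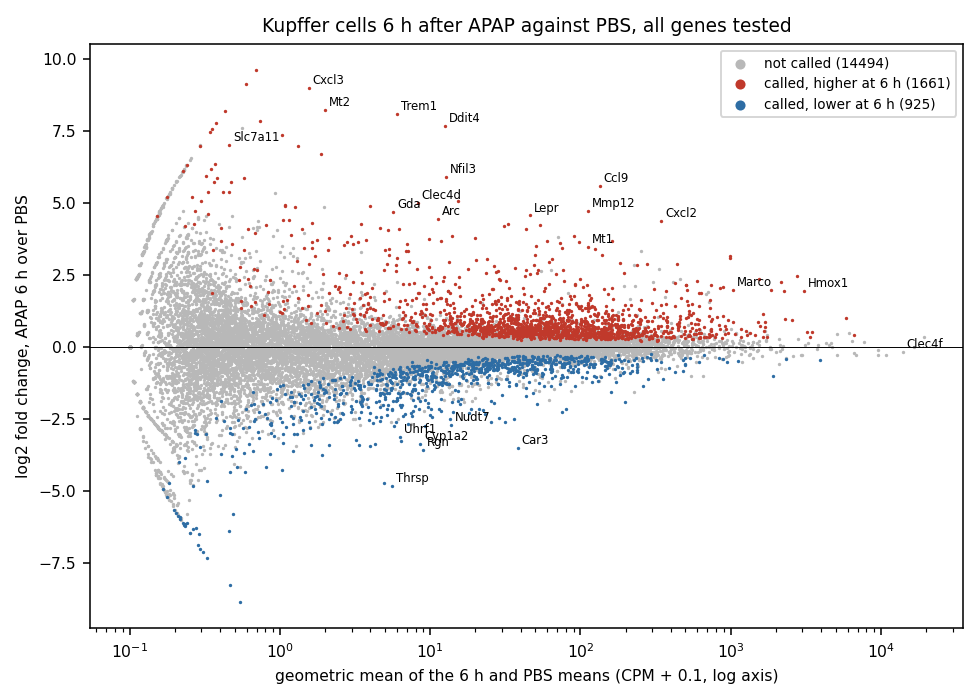
Log2 fold change of KCs 6 h after APAP over PBS (vertical axis) against mean level in CPM (horizontal log axis) for every tested gene, with called genes in colour and some genes labelled. The 1661 higher calls outnumber the 925 lower ones, and Cxcl3 (9.02) and Mt2 (8.25) are among the highest.

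Defining KC markers were high in all 8 libraries. Clec4f, a lectin that marks KCs, had 12918, 11938, 15400.3 and 12434 CPM in 6 h replicates 1 to 4, against 13569 and 13742 CPM in PBS 24 h and 15942 and 15931 CPM in PBS 0 h. Vsig4, a complement receptor of KCs, had 3291 to 4202 CPM in 6 h libraries, against 3593 to 4219 CPM in PBS libraries, and Timd4, which binds phosphatidylserine exposed by dying cells, had 988 to 1413 CPM in 6 h libraries, against 1148 to 1262 CPM in PBS libraries. Each of the 3 overlapped between groups and none was called (adjusted p = 0.61, 0.841 and 0.874). Of 24 KC identity genes, 6 were higher and 6 lower, with a median log2 fold change of -0.14. Marco, a scavenger receptor for bacteria and particles, had 1303, 2302, 2221 and 2329 CPM in 6 h replicates 1 to 4, against 468 and 410.3 CPM in PBS 24 h and 442 and 768 CPM in PBS 0 h. All 6 h libraries were above all PBS libraries (log2 fold change 1.98 ± 0.33, adjusted p = 6e-05). Cd38, an NAD-consuming ectoenzyme, rose by 1.15 log2 units (1689 to 3788 CPM at 6 h, against 1021 to 1167 CPM in PBS) and Lyve1, a hyaluronan receptor, by 2.66 log2 units, though 6 h replicates 3 and 4 had only 14.4 and 24.4 CPM of it. Kcna2, a potassium channel subunit, fell by 2.13 log2 units (adjusted p = 3.71e-06), with 11.3 to 49.9 CPM in 6 h libraries, against 145 to 193 CPM in PBS libraries. Clec1b, the podoplanin receptor, fell by 0.36 log2 units (adjusted p = 0.0227).

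Markers of some other cell types moved with the groups. Summed over 32 genes, hepatocyte markers held 2329, 2878, 3171 and 2986 CPM at 6 h, against 6742 and 5200 CPM in PBS 24 h and 3554 and 4936 CPM in PBS 0 h, with no overlap. T and NK cell markers were also lower in each 6 h library, at 42.9 to 122 CPM against 133 to 164 CPM in PBS. Neutrophil markers summed to 369, 147, 132 and 124 CPM at 6 h, against 97.6 to 142 CPM in PBS. Of that list, 6 of 19 genes, among them the granule genes Mpo, Ngp, Camp and Ltf and the surface marker Ly6g, had no count in any of the 8 libraries, and Trem1 alone made up 248 CPM of the 369. Of 12 tested neutrophil genes 5 rose and 1 fell (median 2.58). Besides Trem1 and the decoy receptor Il1r2 the rises were S100a8 and S100a9, the calprotectin subunits, and the collagenase Mmp8. S100a8 had 7.41, 6.04, 1.33 and 1.52 CPM in 6 h replicates 1 to 4, against 0.342 and 0.154 CPM in PBS 24 h and 0.718 and 0.360 CPM in PBS 0 h. S100a9 had 1.59, 0.959, 1.60 and 0.894 CPM in 6 h replicates 1 to 4, against 0.0488 and 0.103 CPM in PBS 24 h and 0.666 and 0.257 CPM in PBS 0 h. Mmp8 had 0.265, 6.38, 4.81 and 3.84 CPM in 6 h replicates 1 to 4, against 0.683 and 0.615 CPM in PBS 24 h and 0.666 and 0.154 CPM in PBS 0 h, with 6 h replicate 1 inside the PBS range. The 5 rises became 1 without 6 h replicates 1 and 2 (3 without PBS 24 h replicate 1 or 2 or APAP 6 h replicate 1 or PBS 0 h replicate 2). Monocyte markers held 595 to 914 CPM at 6 h, against 469 to 662 CPM in PBS. Among them Ccr2 and Ly6c2, which define inflammatory monocytes, were at 0 to 4.08 and 0 to 0.315 CPM at 6 h, against 3.59 to 6.84 and 0 to 0.256 CPM in PBS, and were not called. Marker sums of the remaining types overlapped, apart from B and plasma cells with 60.7 to 81.1 CPM at 6 h, against 99.8 to 135 CPM in PBS. Counts of called genes in these lists were 1 higher and 1 lower of 17 for stellate cells, 1 and 1 of 20 for sinusoidal endothelium, 0 and 1 of 13 for T and NK cells, 0 and 2 of 14 for B cells, and none of 15, 10 and 4 for dendritic cells, erythroid cells and cholangiocytes. Over all tested genes 9.72% were called higher and 5.42% lower.

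Some chemokines that attract neutrophils and monocytes rose. Cxcl3 (chromosome 5, 90786103 to 90789600, plus strand on mm10, GENCODE M21) had 38, 8.82, 3.99 and 7.41 CPM in 6 h replicates 1 to 4, against 0 and 0.256 CPM in PBS 24 h and 0 and 0 CPM in PBS 0 h. Replicate 1 was highest, and every 6 h library was above every PBS library. Its summed counts were 987 at 6 h against 5 in PBS, a ratio of 203 (95% interval 86.6 to 626, counting error only), and the fitted log2 fold change was 9.02 ± 1.83, adjusted p = 0.000665. In set 2 alone its log2 fold change was 9.92 and its adjusted p 0.0503. Cxcl2, which acts on the same neutrophil receptor, had 2834, 1252, 235 and 754 CPM in 6 h replicates 1 to 4, against 179.9 and 153 CPM in PBS 24 h and 19.4 and 24.1 CPM in PBS 0 h. The groups did not overlap, but both PBS 24 h libraries were far above both PBS 0 h libraries (log2 fold change 4.40 ± 1.23, adjusted p = 0.0126). Cxcl1 had 157, 147, 15.6 and 83.7 CPM in 6 h replicates 1 to 4, against 21.5 and 13 CPM in PBS 24 h and 1.18 and 2.21 CPM in PBS 0 h, and 6 h replicate 3 was below PBS 24 h replicate 1 (log2 fold change 4.21 ± 1.31, adjusted p = 0.0248). Cxcl2 lost its call when any 1 of the 4 PBS libraries or 6 h replicate 1 was left out, with adjusted p from 0.0540 to 0.0806. Cxcl1 lost its call under the same omissions, with adjusted p from 0.0619 to 0.123. Cxcl13, a B cell attractant, rose by 1.62 log2 units (adjusted p = 0.049). In all, 4 of 12 CXC chemokines rose and none fell, with a median of 1.1 (1 without PBS 24 h replicate 1 or 2 or PBS 0 h replicate 1 or 2, 2 without APAP 6 h replicate 1).

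Of 13 CC chemokines 6 rose and none fell, with a median log2 fold change of 2.14, and 5 rose without 6 h replicates 1 and 2. Ccl9 (chromosome 11, 83572919 to 83578636, minus strand), a myeloid attractant, had 2186, 1114, 236 and 202 CPM in 6 h replicates 1 to 4, against 17 and 21.9 CPM in PBS 24 h and 17.3 and 20.7 CPM in PBS 0 h. Replicates 1 and 2 were several-fold above replicates 3 and 4, yet the lowest 6 h library was far above the highest PBS library (log2 fold change 5.60 ± 0.73, adjusted p = 2.46e-06). Ccl2 and Ccl7, ligands of CCR2 that draw monocytes from blood, were more even. Ccl2 had 705, 586, 509 and 742 CPM in 6 h replicates 1 to 4, against 126 and 101 CPM in PBS 24 h and 84.8 and 49.2 CPM in PBS 0 h (log2 fold change 2.87 ± 0.54, adjusted p = 0.000284). Ccl7 had 499, 284, 406 and 507 CPM in 6 h replicates 1 to 4, against 59.1 and 46.8 CPM in PBS 24 h and 52.4 and 26.4 CPM in PBS 0 h (log2 fold change 3.22 ± 0.59, adjusted p = 0.000211). Neither overlapped between groups. Ccl12, another CCR2 ligand in mice, rose by 3.34 log2 units, Ccl6 by 1.95 log2 units and Ccl17, at 0.315 to 9.73 CPM in 6 h libraries, against 0.0513 to 0.256 CPM in PBS libraries, by 4.91 log2 units.

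Interleukin 1 control genes and some cytokines rose, while Il1b and Tnf did not pass the test. Il1rn, the natural antagonist of the IL-1 receptor (chromosome 2, 24336853 to 24351494, plus strand), had 485, 294, 639 and 776 CPM in 6 h replicates 1 to 4, against 26 and 27.4 CPM in PBS 24 h and 61.1 and 76.6 CPM in PBS 0 h. All 6 h libraries were above all PBS libraries (log2 fold change 3.68 ± 0.42, adjusted p = 2.78e-07). Nlrp3, the inflammasome sensor, rose by 2.21 log2 units (75.4 to 206 CPM at 6 h, against 23.2 to 35.6 CPM in PBS), Il18, an inflammasome-processed cytokine, by 1.12 log2 units (92.8 to 157 CPM at 6 h, against 54.1 to 67.5 CPM in PBS), and Il1r2, the decoy receptor, by 7.36 log2 units, with 353 counts at 6 h against 7 in PBS. In all 8 of 19 genes of this family rose and none fell (median 0.47), and 4 rose without 6 h replicates 1 and 2. Il1b had 1366, 1278, 742 and 1399 CPM in 6 h replicates 1 to 4, against 757 and 440.2 CPM in PBS 24 h and 281 and 252 CPM in PBS 0 h. The only 6 h library inside the PBS range was replicate 3 (log2 fold change 1.58 ± 0.65, adjusted p = 0.0954). Tnf had 394, 317, 48.6 and 81.3 CPM in 6 h replicates 1 to 4, against 57.1 and 27.7 CPM in PBS 24 h and 6.31 and 4.06 CPM in PBS 0 h. Set 1 libraries were higher in both groups, and within each set the 6 h libraries were above PBS (log2 fold change 3.83 ± 1.59, adjusted p = 0.102). With set as a covariate the adjusted p was 0.0271 for Il1b and 0.000244 for Tnf.

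Of 21 genes of TNF and IL-6 family cytokines and their SOCS feedback, 8 rose and none fell (median 0.94). Csf3, the granulocyte growth factor, had 322 counts at 6 h and none in PBS, at least 110-fold higher against a floor of 3 counts over the group. Il6 had 559.9, 172, 28.5 and 65.3 CPM in 6 h replicates 1 to 4, against 24.3 and 24.3 CPM in PBS 24 h and 10.05 and 11.4 CPM in PBS 0 h, with replicate 3 close to the PBS 24 h libraries (log2 fold change 3.67 ± 1.0, adjusted p = 0.0101). Socs3, an inhibitor of IL-6 signalling, rose by 3.86 log2 units and Il10, an anti-inflammatory cytokine, by 2.48 log2 units (adjusted p = 0.00197 and 0.0449). The 8 became 2 without 6 h replicates 1 and 2, and 3 without APAP 6 h replicate 1, 4 without PBS 24 h replicate 1 or 2 or PBS 0 h replicate 2, 5 without PBS 0 h replicate 1. Of 20 NF-kappaB subunits and feedback genes 5 rose and none fell (median 1.09), among them Birc3, an inhibitor of apoptosis, by 1.18 log2 units, and the mRNA decay factor Zfp36 by 2.0 log2 units. That count was 0 without 6 h replicates 1 and 2 (0 without APAP 6 h replicate 1, 2 without PBS 24 h replicate 1 or 2 or PBS 0 h replicate 1 or 2).

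Of 26 scavenger and pattern recognition receptors, which sense microbes and damaged cells, 13 rose and none fell (median 0.55), and 8 rose without 6 h replicates 1 and 2. Clec4d (chromosome 6, 123262111 to 123275265, plus strand), a lectin that pairs with Clec4e, had 71.5, 48.7, 27.9 and 29.97 CPM in 6 h replicates 1 to 4, against 1.17 and 0.821 CPM in PBS 24 h and 2.15 and 1.54 CPM in PBS 0 h. No 6 h library overlapped PBS (log2 fold change 5.03 ± 0.50, adjusted p = 1.32e-08). Clec4e, which senses a protein released by dead cells, had 50.3, 15.5, 6.74 and 9.25 CPM in 6 h replicates 1 to 4, against 0.976 and 0.256 CPM in PBS 24 h and 0.461 and 0.978 CPM in PBS 0 h (log2 fold change 4.92 ± 1.18, adjusted p = 0.00369). It missed the threshold with PBS 0 h alone as the control (adjusted p = 0.0501) and without 6 h replicates 1 and 2 (0.0717). Trem1 (chromosome 17, 48232768 to 48246924, plus strand), an amplifier of myeloid activation, had 248, 51.2, 6.19 and 8.31 CPM in 6 h replicates 1 to 4, against 1.02 and 0.154 CPM in PBS 24 h and 0.256 and 0 CPM in PBS 0 h. Replicate 1 held most of the 5115 counts at 6 h, against 29 counts in PBS (log2 fold change 8.11 ± 1.61, adjusted p = 0.000527), and without replicates 1 and 2 the adjusted p was 0.0558. Cd14, the co-receptor for lipopolysaccharide, rose by 3.18 log2 units (629 to 8424 CPM at 6 h, against 254 to 412 CPM in PBS), and Colec12, a scavenger lectin, by 2.07 log2 units. Of 22 complement and Fc receptor genes 3 rose and none fell (median 0.20), against 9.72% higher and 5.42% lower of all tested genes. C5ar1, the receptor for the complement fragment C5a, had 944, 1199, 1079.8 and 1084 CPM in 6 h replicates 1 to 4, against 199.7 and 297 CPM in PBS 24 h and 230.1 and 228 CPM in PBS 0 h, without overlap and with little spread (log2 fold change 2.17 ± 0.37, adjusted p = 8.61e-05).

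Genes of the antioxidant response rose. Of 32 NRF2 targets 19 rose and 1 fell (median 0.64), and 17 rose with either 6 h replicates 1 and 2 or replicates 3 and 4 left out. Slc7a11 (chromosome 3, 49892526 to 50443614, minus strand) had 2.38, 0.671, 0.825 and 3.15 CPM in 6 h replicates 1 to 4, against 0 and 0.0513 CPM in PBS 24 h and 0 and 0 CPM in PBS 0 h. It was nearly undetected in PBS, with 128 counts at 6 h against 1 in PBS, a ratio of 132 (95% interval 23.2 to 5240, counting error only; log2 fold change 7.02 ± 1.24, adjusted p = 0.000114). Hmox1 (chromosome 8, 75093621 to 75100589, plus strand), which breaks down haem, had 10025, 6264, 4059 and 3902 CPM in 6 h replicates 1 to 4, against 1735 and 1579 CPM in PBS 24 h and 1573 and 1319.7 CPM in PBS 0 h. Its PBS libraries were within a narrow range far below the lowest 6 h library (log2 fold change 1.97 ± 0.31, adjusted p = 2.39e-05). Srxn1, which restores oxidised peroxiredoxins, had 319.5, 172, 169 and 131 CPM in 6 h replicates 1 to 4, against 39.3 and 40.9 CPM in PBS 24 h and 48.2 and 43.5 CPM in PBS 0 h (log2 fold change 2.21 ± 0.26, adjusted p = 3.12e-07). Txnrd1, thioredoxin reductase, had 1646, 789, 863 and 762 CPM in 6 h replicates 1 to 4, against 207 and 279 CPM in PBS 24 h and 267 and 272 CPM in PBS 0 h (log2 fold change 1.99 ± 0.27, adjusted p = 3.68e-06). Neither overlapped, and replicate 1 was highest in both. Gsr, glutathione reductase, rose by 2.16 log2 units, Gclm, a subunit of the rate-limiting glutathione synthesis enzyme, by 1.33 log2 units (239.8 to 458 CPM at 6 h, against 117 to 147 CPM in PBS), and Sqstm1, an autophagy receptor, by 1.35 log2 units. Nqo1, a quinone reductase, had 1.05 to 3.12 CPM at 6 h, against 0.206 to 0.872 CPM in PBS, and was not called (adjusted p = 0.148). Gsta3, a glutathione transferase, fell by 2.28 log2 units (adjusted p = 0.0216), with 2.45 to 13.6 CPM in 6 h libraries, against 28.5 to 50.4 CPM in PBS libraries. Hepatocyte marker sums were also lower at 6 h, and their part in the Gsta3 value was not tested.

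**Figure D2:**
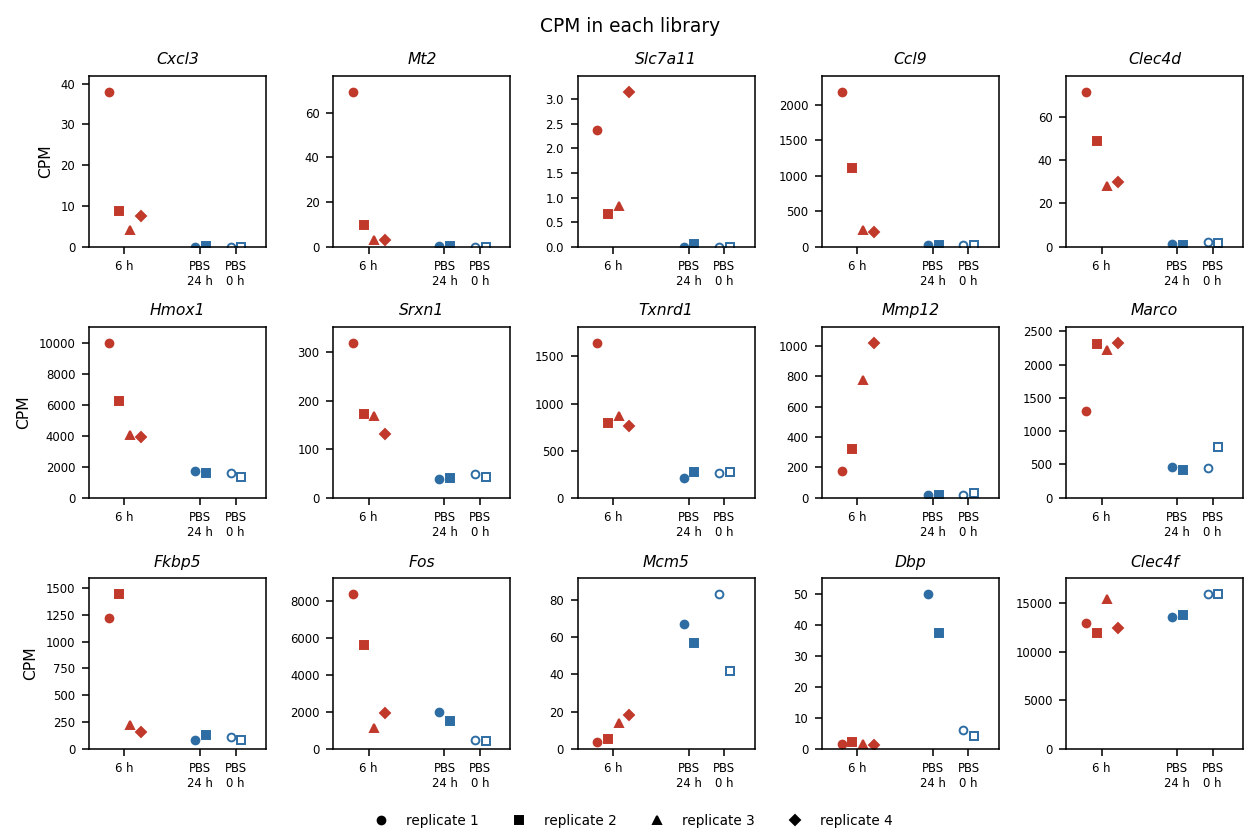
CPM in each library for 15 genes, with 6 h replicates to the left and PBS 24 h (filled) and PBS 0 h (open) to the right of each panel; linear axes start at 0. In Clec4d, Hmox1, Srxn1, Cxcl3, Mt2 and Ccl9 all 6 h libraries lie above all PBS libraries, and 6 h replicate 1 is the highest.

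Mt2 (chromosome 8, 94172664 to 94173568, plus strand) had 69.4, 9.87, 3.21 and 2.89 CPM in 6 h replicates 1 to 4, against 0.195 and 0.103 CPM in PBS 24 h and 0.0513 and 0 CPM in PBS 0 h. All 6 h libraries were above all PBS libraries, with replicate 1 far ahead. The counts were 1380 at 6 h against 7 in PBS, a ratio of 203 (95% interval 98.1 to 505, counting error only; log2 fold change 8.25 ± 0.99, adjusted p = 4e-07). Mt1 (chromosome 8, 94179082 to 94180327, plus strand), next to it on the chromosome, had 1009, 248, 91.7 and 118 CPM in 6 h replicates 1 to 4, against 36.8 and 48.5 CPM in PBS 24 h and 30.4 and 19.7 CPM in PBS 0 h, again without overlap (log2 fold change 3.49 ± 0.47, adjusted p = 4.38e-06). Of 17 metallothionein and zinc transporter genes 6 rose and 1 fell, with a median of only 0.21 (3 without PBS 0 h replicate 2). The zinc transporters Slc39a1, Slc39a7 and Slc39a6 rose by 0.66, 0.66 and 0.56 log2 units, and Slc39a8 fell by 0.58 log2 units (adjusted p = 0.0365). Mt2 overlaps a gene on the other strand, and since the strand setting of the counting is not known its count is uncertain to that extent; the same holds for Slc7a11, Txnrd1, Gclm, Trem1, Mmp12, Mmp19, Cdkn1a, Il1b, Atf3, Hspa1a, Dbp and Arntl.

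Genes of amino acid and glucose supply were among the rises. Of 25 integrated stress response genes 10 rose and none fell (median 0.82), and 9 without 6 h replicates 1 and 2. Atf4, the transcription factor of this response, had 272, 244, 144 and 179.9 CPM in 6 h replicates 1 to 4, against 79.6 and 75.6 CPM in PBS 24 h and 55.2 and 50.3 CPM in PBS 0 h, without overlap (log2 fold change 1.71 ± 0.28, adjusted p = 5.21e-05). The amino acid transporters Slc7a1 and Slc7a5 rose by 2.64 and 2.44 log2 units, and Psat1, of serine synthesis, by 1.88 log2 units. Gdf15, a stress hormone, had 32.1, 86.4, 63.3 and 93.1 CPM in 6 h replicates 1 to 4, against 10.7 and 6.21 CPM in PBS 24 h and 3.18 and 2.52 CPM in PBS 0 h (log2 fold change 3.81 ± 1.05, adjusted p = 0.0114). Ddit4, an inhibitor of the growth kinase mTORC1, had 316, 347, 1.42 and 6.68 CPM in 6 h replicates 1 to 4, against 0.976 and 1.18 CPM in PBS 24 h and 0.564 and 0.669 CPM in PBS 0 h. Its fold rests on replicates 1 and 2 (log2 fold change 7.68 ± 1.43, adjusted p = 0.000261), without which the adjusted p was 0.26. Atf3 had 314, 529, 165 and 414 CPM in 6 h replicates 1 to 4, against 234 and 158 CPM in PBS 24 h and 71.1 and 57.4 CPM in PBS 0 h and was not called (adjusted p = 0.18; 0.0367 with set as a covariate). Of 27 glycolysis and hypoxia genes 14 rose and none fell (median 0.47; 8 without PBS 24 h replicate 1 or PBS 0 h replicate 2, and 8 without 6 h replicates 1 and 2), led by the glucose transporter Slc2a1 by 1.44 log2 units (77.1 to 146 CPM at 6 h, against 29.7 to 46.2 CPM in PBS), with the pyruvate kinase gene Pkm by 0.92 log2 units. Of 22 haem and iron genes 8 rose and 3 fell (median 0.25). Fth1, the ferritin heavy chain that stores iron, had 7222 to 9371 CPM in 6 h libraries, against 3891 to 4422 CPM in PBS libraries (log2 fold change 1.03 ± 0.18, adjusted p = 0.000137). Spic, a factor of iron-recycling macrophages, rose by 1.04 log2 units, and Ncoa4, the cargo receptor for breakdown of ferritin, fell by 0.78 log2 units (adjusted p = 9.24e-05).

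Immediate early transcription factors, which cells switch on within minutes of a stimulus, rose in 21 of 28 cases, with none lower (median 2.16) and with large differences between libraries. Fos, a subunit of AP-1, had 8378, 5615, 1099 and 1931 CPM in 6 h replicates 1 to 4, against 1979 and 1499 CPM in PBS 24 h and 493 and 419 CPM in PBS 0 h. Set 1 libraries were higher than set 2 libraries in both groups, so 6 h replicate 3 lay below the PBS 24 h libraries, while within each set 6 h was above PBS (log2 fold change 2.26 ± 0.67, adjusted p = 0.0188). Fosl1, another AP-1 member, had 657 counts at 6 h against 7 in PBS, with 4.15 to 17.3 CPM in 6 h libraries, against 0 to 0.206 CPM in PBS libraries (log2 fold change 7.01 ± 1.37, adjusted p = 0.000365). Maff, a small MAF partner of NRF2, was even among 6 h libraries, with 12.6 to 18 CPM in 6 h libraries, against 0.566 to 2.29 CPM in PBS libraries (log2 fold change 3.41 ± 0.88, adjusted p = 0.00636). The zinc finger factor Egr1 rose by 3.09 log2 units and the orphan nuclear receptor Nr4a1 by 2.90 log2 units (adjusted p = 0.0155 and 0.0217). Of the 28, 3 rose without 6 h replicates 1 and 2, 4 with PBS 24 h alone as the control, 26 with set as a covariate, and 7 without PBS 24 h replicate 2 or PBS 0 h replicate 2, 8 without PBS 24 h replicate 1, 9 without APAP 6 h replicate 1 or PBS 0 h replicate 1.

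Glucocorticoid response genes rose, 13 of 19 with none lower (median 1.87), mainly in 6 h replicates 1 and 2. Fkbp5 (chromosome 17, 28399094 to 28517527, minus strand), a co-chaperone that dampens the glucocorticoid receptor, had 1219, 1447, 222 and 152 CPM in 6 h replicates 1 to 4, against 83.9 and 129 CPM in PBS 24 h and 110.3 and 82.4 CPM in PBS 0 h. Replicates 1 and 2 were several-fold above replicates 3 and 4, which themselves were above every PBS library (log2 fold change 2.91 ± 0.41, adjusted p = 6.57e-06). Per1, a clock gene with a glucocorticoid response element, rose by 2.72 log2 units (6.42 to 82.3 CPM at 6 h, against 4.05 to 11.8 CPM in PBS). Zbtb16, a transcriptional repressor, had 9.20, 10.4, 0.138 and 0.210 CPM in 6 h replicates 1 to 4, against 0.146 and 0 CPM in PBS 24 h and 0.256 and 0.463 CPM in PBS 0 h (log2 fold change 4.87 ± 1.27, adjusted p = 0.00735). Only replicates 1 and 2 were above all PBS libraries. The list median over PBS was 1.99, 1.95, 0.37 and 0.54 (log2 of CPM + 1) in replicates 1 to 4. Without replicates 1 and 2, 3 members rose, and 7 without PBS 0 h replicate 1, 8 without PBS 24 h replicate 2. Mt1, Mt2 and Ddit4 are also members of this list.

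**Figure D3:**
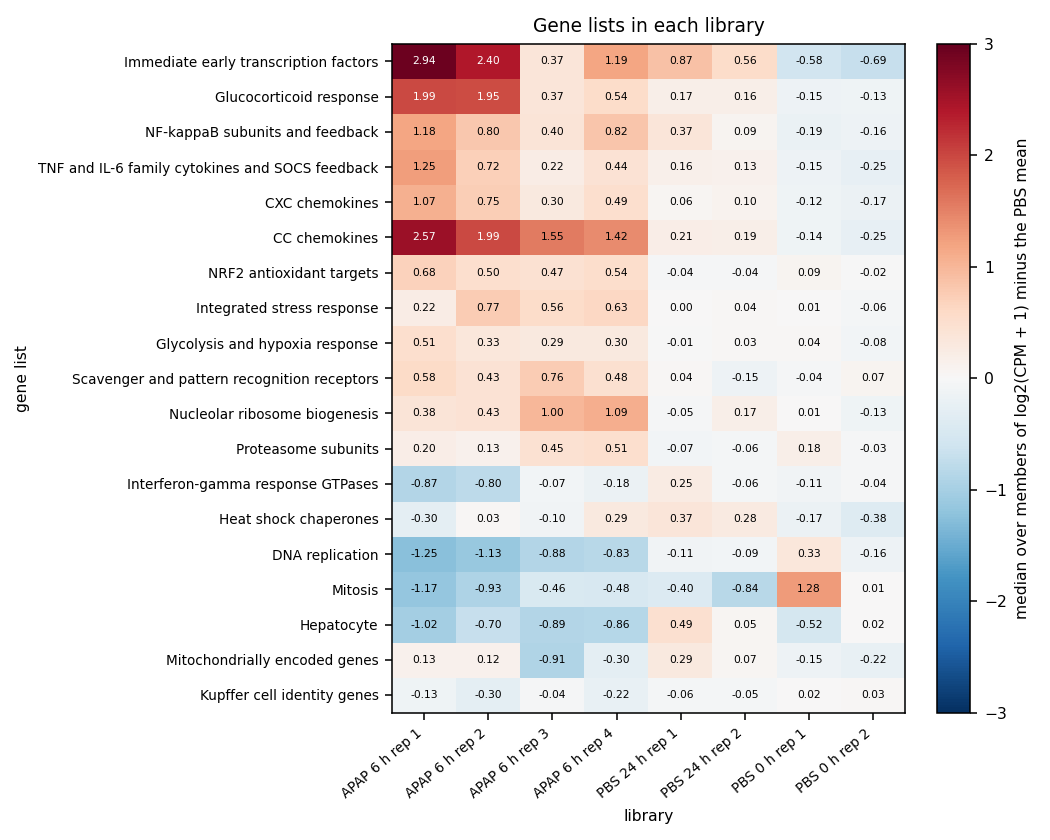
Median difference from the PBS mean (log2 of CPM + 1) for 19 gene lists (down the page) in each of the 8 libraries, 6 h libraries left of PBS libraries. Immediate early genes run from 2.94 in 6 h replicate 1 to 0.37 in replicate 3, while NRF2 targets stay between 0.47 and 0.68.

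Proteases, growth factors and cell cycle inhibitors were among the rises. Mmp12 (chromosome 9, 7344381 to 7369499, plus strand), the macrophage elastase, had 176, 320.2, 778 and 1023 CPM in 6 h replicates 1 to 4, against 19.8 and 16.1 CPM in PBS 24 h and 20.1 and 32.3 CPM in PBS 0 h. Replicate 4 was the highest and replicate 1 the lowest of the 6 h libraries, and none overlapped PBS (log2 fold change 4.73 ± 0.80, adjusted p = 8.06e-05). Mmp19, another metalloproteinase, had 382, 135, 33.3 and 26.4 CPM in 6 h replicates 1 to 4, against 9.37 and 6.72 CPM in PBS 24 h and 6.51 and 7.36 CPM in PBS 0 h (log2 fold change 4.27 ± 0.51, adjusted p = 5.88e-07), and Mmp14, which activates other metalloproteinases, rose by 1.57 log2 units. Of 18 metalloproteinases and inhibitors 7 rose and none fell (median 0.63). Of 25 growth factor and repair genes 6 rose and 1 fell (median 0.52; 3 without PBS 24 h replicate 2 or PBS 0 h replicate 1 or 2). Plaur, the urokinase receptor, had 286, 185, 105 and 132 CPM in 6 h replicates 1 to 4, against 13.4 and 13 CPM in PBS 24 h and 8.20 and 7.97 CPM in PBS 0 h, without overlap (log2 fold change 4.10 ± 0.55, adjusted p = 3.67e-06). Hbegf, a ligand of the EGF receptor, rose by 2.38 log2 units, and Ereg and Areg, ligands of the same receptor, had 39 and 25 counts at 6 h, all in replicates 1 and 2, and none in PBS. Igf1, insulin-like growth factor 1, fell by 0.84 log2 units (adjusted p = 0.000651) with 167 to 533 CPM in 6 h libraries, against 624 to 674 CPM in PBS libraries. Cdkn1a, the p21 inhibitor of cell division, had 669.7, 156, 26.1 and 39.1 CPM in 6 h replicates 1 to 4, against 20.9 and 15.2 CPM in PBS 24 h and 8.41 and 6.89 CPM in PBS 0 h (log2 fold change 4.24 ± 0.72, adjusted p = 8.61e-05; adjusted p = 0.131 without replicates 1 and 2). Of 20 p53 targets 8 rose and 2 fell (median 0.63; 4 without PBS 24 h replicate 1, 5 without PBS 24 h replicate 2 or APAP 6 h replicate 1 or PBS 0 h replicate 1 or 2, and 3 without 6 h replicates 1 and 2).

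Further rises named by size were of varied function. Lepr (chromosome 4, 101717404 to 101815352, plus strand), the leptin receptor, had 596, 191, 52.4 and 40.1 CPM in 6 h replicates 1 to 4, against 8.74 and 4.92 CPM in PBS 24 h and 10.3 and 14.5 CPM in PBS 0 h, without overlap (log2 fold change 4.58 ± 0.66, adjusted p = 9.77e-06). Nfil3, a transcriptional repressor, had 302, 39, 4.13 and 8.47 CPM in 6 h replicates 1 to 4, against 1.32 and 0.256 CPM in PBS 24 h and 1.64 and 3.65 CPM in PBS 0 h, with replicate 1 far above the rest and replicate 3 just above the highest PBS library (log2 fold change 5.92 ± 0.91, adjusted p = 2.15e-05; adjusted p = 0.32 in set 2 alone). Arc, best known from synapses, rose by 4.47 log2 units (10.7 to 104 CPM at 6 h, against 0.515 to 4.93 CPM in PBS), and Gda, guanine deaminase, by 4.71 log2 units (9.49 to 68.4 CPM at 6 h, against 0.781 to 1.44 CPM in PBS; adjusted p = 0.0615 without replicates 1 and 2).

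Genes of ribosome assembly rose, as did some proteasome and ribosomal protein genes, by small amounts. Of 32 nucleolar genes of ribosome biogenesis 24 rose and none fell (median 0.80). Gnl3, nucleostemin, had 54.4, 57.5, 99.9 and 129 CPM in 6 h replicates 1 to 4, against 22.8 and 36.9 CPM in PBS 24 h and 33.4 and 24.2 CPM in PBS 0 h. Replicates 3 and 4 were higher than replicates 1 and 2, and no library overlapped PBS (log2 fold change 1.54 ± 0.29, adjusted p = 0.000246). Rrp12 and Nolc1, which act in ribosome assembly, rose by 1.43 and 1.08 log2 units. The count was 26 without 6 h replicates 1 and 2, 9 without replicates 3 and 4, 15 without PBS 24 h replicate 1 or PBS 0 h replicate 2. Of 31 proteasome subunits 14 rose (median 0.36), led by Psmc1 with 253 to 511 CPM at 6 h, against 167 to 185 CPM in PBS. That count was 6 without PBS 0 h replicate 2, 7 without PBS 24 h replicate 2, 8 without PBS 24 h replicate 1 or APAP 6 h replicate 4, 9 without APAP 6 h replicate 3. Of 38 cytosolic ribosomal proteins 14 rose (median 0.32), led by Rps9 by 0.55 log2 units. That count was 1 without PBS 0 h replicate 2, 3 without PBS 24 h replicate 1 or 2, 4 without APAP 6 h replicate 1 or 4. Higher calls over all tested genes were 1661 in the main fit, 940 without PBS 0 h replicate 2 and 950 without PBS 24 h replicate 1. None fell in either list. Among 24 heat shock chaperones 1 rose and 1 fell (median 0.07), against the mean of 2 unlike PBS groups. The list summed to 3890 to 5293 CPM at 6 h. It held 6924 and 6308 CPM in PBS 24 h, and 3677 and 3008 CPM in PBS 0 h. With PBS 0 h alone as the control its member Bag3 was higher (adjusted p = 0.0243). With PBS 24 h alone Dnaja1 was lower (adjusted p = 0.044). Hspa1a had 53.9 to 469 CPM in 6 h libraries, against 37.5 to 208 CPM in PBS libraries (adjusted p = 0.277). Among 24 genes of the unfolded protein response 3 rose and 1 fell (median -0.09), against 9.72% higher and 5.42% lower of all tested genes.

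Of 22 KC transcription factors 11 rose and none fell (median 0.45), and 4 without 6 h replicates 1 and 2 (7 without APAP 6 h replicate 1). Id2, an inhibitor of helix-loop-helix factors, had 1476, 1362, 937 and 1355 CPM in 6 h replicates 1 to 4, against 559.6 and 454 CPM in PBS 24 h and 363 and 294 CPM in PBS 0 h (log2 fold change 1.65 ± 0.38, adjusted p = 0.00225), and Id1 rose by 1.65 log2 units. Of 29 lipid-associated macrophage genes 10 rose and none fell (median 0.38; 6 without PBS 0 h replicate 2). Besides Mmp12 they were led by Cd63, a tetraspanin, by 2.23 log2 units, and included the lipid receptor Cd36 by 1.09 log2 units and Lgals3, galectin 3, by 0.99 log2 units. Trem2 had 22.6 to 28 CPM in 6 h libraries, against 19.7 to 44.9 CPM in PBS libraries, and Spp1, osteopontin, 0 to 1.24 CPM in 6 h libraries, against 0 to 0.718 CPM in PBS libraries. Neither was called (adjusted p = 0.705 and 0.814).

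**Figure D4:**
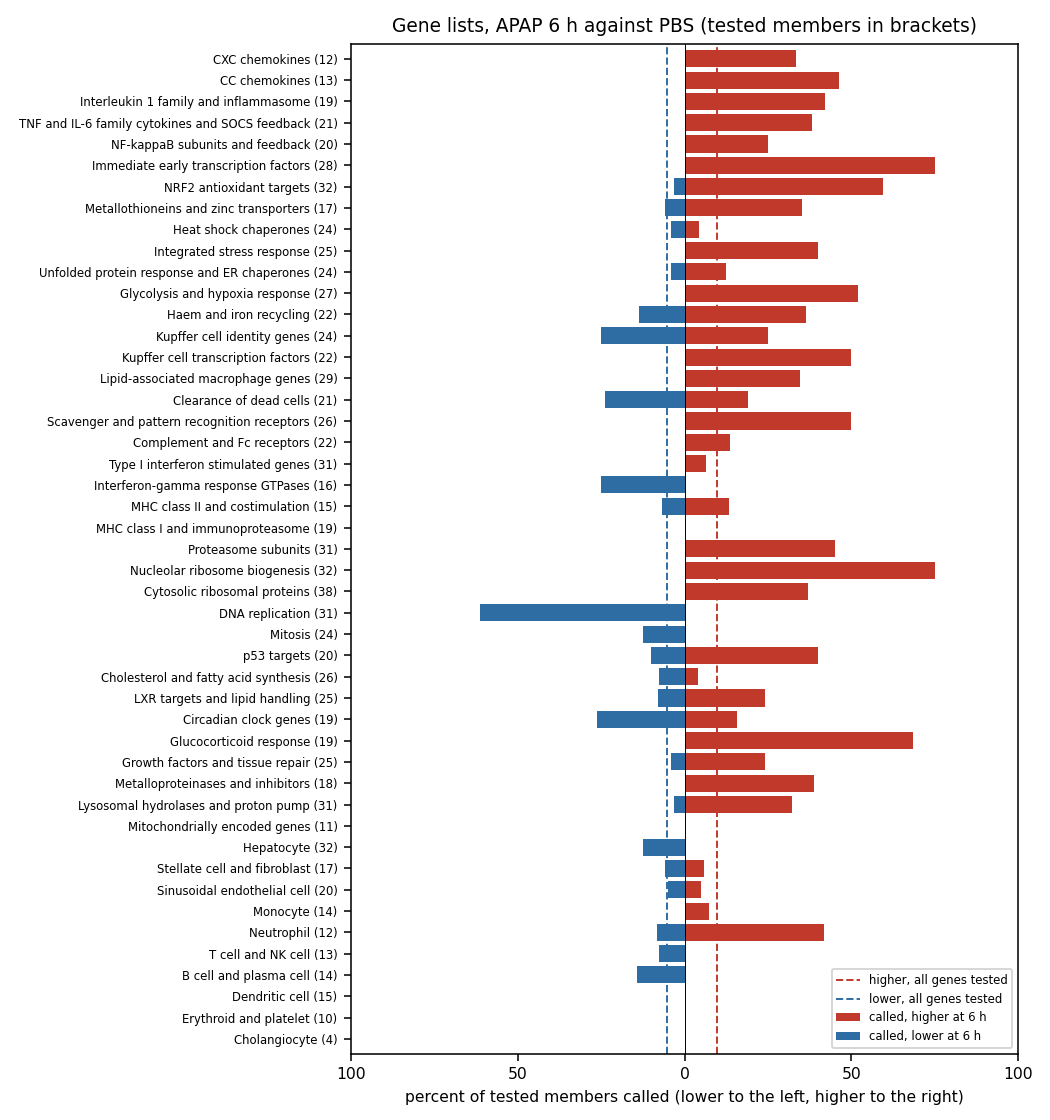
Percent of tested members of each list that were called higher or lower at 6 h against PBS; dashed lines mark the share over all tested genes, 9.72% higher and 5.42% lower. Immediate early, nucleolar, glucocorticoid and NRF2 lists have the highest shares of rises, and DNA replication the highest share of falls.

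DNA replication genes fell in KCs at 6 h, 19 of 31 with none higher (median -1.12). Mcm5 (chromosome 8, 75109569 to 75128439, plus strand), a subunit of the replicative helicase, had 3.51, 5.18, 14.1 and 18.4 CPM in 6 h replicates 1 to 4, against 66.9 and 56.8 CPM in PBS 24 h and 83.5 and 41.6 CPM in PBS 0 h. Every 6 h library was below every PBS library (log2 fold change -2.59 ± 0.56, adjusted p = 0.00137). Uhrf1, which keeps DNA methylation through replication, had 0, 0, 4.95 and 3.21 CPM in 6 h replicates 1 to 4, against 27.2 and 13.7 CPM in PBS 24 h and 21.4 and 11.5 CPM in PBS 0 h, with no count in replicates 1 and 2 (log2 fold change -3.12 ± 0.79, adjusted p = 0.00568; adjusted p = 0.114 without those replicates and 0.111 when only the compared groups were fitted). Mcm2 and Cdc6, which license origins, fell (log2 fold change -1.65, adjusted p = 0.00636, and -2.07, adjusted p = 0.00983). Without 6 h replicates 1 and 2, 3 genes fell, and 8 without PBS 0 h replicate 1, 9 without PBS 24 h replicate 1, 10 without PBS 24 h replicate 2, 11 without APAP 6 h replicate 1, 12 without APAP 6 h replicate 2. In the mitosis list 3 of 24 fell (median -0.80), against 5.42% of all tested genes. Its summed level was 88.2 to 128 CPM at 6 h, against 155 and 101 CPM in PBS 24 h and 459 and 187 CPM in PBS 0 h. PBS 0 h replicate 1 thus stood well above the other PBS libraries. Mki67, a proliferation marker, had 7.01, 13, 13.2 and 9.99 CPM in 6 h replicates 1 to 4, against 22.8 and 11.8 CPM in PBS 24 h and 29.3 and 17.5 CPM in PBS 0 h, overlapping and not called (adjusted p = 0.113).

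Most of the largest falls were of genes known from hepatocyte metabolism. Thrsp, a regulator of lipid synthesis, had 0.331, 0.527, 1.65 and 0.999 CPM in 6 h replicates 1 to 4, against 56.2 and 46.6 CPM in PBS 24 h and 10.5 and 14.3 CPM in PBS 0 h (log2 fold change -4.81 ± 1.16, adjusted p = 0.00376). Car3, a carbonic anhydrase, had 1.85, 2.54, 20.7 and 19.7 CPM in 6 h replicates 1 to 4, against 189.7 and 97.5 CPM in PBS 24 h and 86.1 and 141 CPM in PBS 0 h (log2 fold change -3.50 ± 0.87, adjusted p = 0.0052). Cyp1a2, a drug-metabolising P450, had 0.132, 1.49, 5.09 and 3.47 CPM in 6 h replicates 1 to 4, against 50.1 and 17.6 CPM in PBS 24 h and 17.4 and 25.3 CPM in PBS 0 h (log2 fold change -3.37 ± 0.81, adjusted p = 0.00377). None of the 3 overlapped between groups, and in Car3 and Cyp1a2 6 h replicates 1 and 2 were lowest. Gulo, of vitamin C synthesis, fell by 3.43 log2 units (adjusted p = 0.00241) and Rgn, regucalcin, fell by 3.56 log2 units (adjusted p = 0.00161). Without 6 h replicates 1 and 2 the adjusted p of Rgn was 0.0635. The glucose 6-phosphatase gene G6pc had 0 to 2.06 CPM in 6 h libraries, against 9.13 to 20.7 CPM in PBS libraries (log2 fold change -3.35, adjusted p = 0.0222). Inmt, a methyltransferase, fell by 2.75 log2 units (adjusted p = 0.0109). The bile genes Abcb11, an export pump for bile salts, and Cyp8b1, of bile acid synthesis, had log2 fold changes of -2.73, adjusted p = 0.0198, and -2.67, adjusted p = 0.0263. Nudt7, of peroxisomal coenzyme A turnover, fell by 2.69 log2 units (adjusted p = 0.03), Sec14l2, a tocopherol-binding protein, fell by 2.62 log2 units (adjusted p = 0.00983), and Keg1 fell by 3.39 log2 units (adjusted p = 0.00764). Mup17 fell by 4.73 log2 units (adjusted p = 0.0143), but it belongs to a family of near-identical genes, so its count is uncertain. These genes moved with the hepatocyte marker sum given above (2329 to 3171 CPM at 6 h, against 3554 to 6742 CPM in PBS). The covariate fitted was the sum of log2 CPM over the same markers, not this summed CPM. With it 783 genes were lower in place of 925. Cyp8b1 was no longer called (adjusted p = 0.0719), while the other genes of this paragraph were still called. Cyp1a2 and G6pc are themselves among the markers summed for the covariate. The part of hepatocyte RNA in these falls was not tested. In the hepatocyte list itself 4 of 32 fell and none rose (median -0.84; 1 without APAP 6 h replicate 1, 2 without PBS 24 h replicate 1 or APAP 6 h replicate 2 or PBS 0 h replicate 2). G6pc lost its call without PBS 24 h replicate 1, 6 h replicate 1 or 2, or PBS 0 h replicate 2, as did Abcb11. Nudt7 lost it without 6 h replicate 1 or 2 or any 1 PBS library, Cyp8b1 without PBS 24 h replicate 1, 6 h replicate 1 or 4, or PBS 0 h replicate 2, and Inmt without 6 h replicate 1.

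Clock genes differed in both directions, 3 higher and 5 lower of 19 (median -0.81). Dbp (chromosome 7, 45705088 to 45710203, plus strand), a clock output factor, had 1.52, 2.06, 1.42 and 1.26 CPM in 6 h replicates 1 to 4, against 50.2 and 37.4 CPM in PBS 24 h and 6.15 and 4.17 CPM in PBS 0 h. Both PBS groups were above every 6 h library, but PBS 24 h was several-fold above PBS 0 h (log2 fold change -3.26 ± 0.45, adjusted p = 3.77e-06). In set 2 alone, with PBS 0 h as the control, its log2 fold change was -1.94 (adjusted p = 0.0661). Tef, a relative of Dbp, and the period gene Per3 fell (log2 fold change -1.96, adjusted p = 6.57e-06, and -2.44, adjusted p = 7.57e-05). Arntl, which encodes BMAL1, had 43.5, 31.8, 30.1 and 25.6 CPM in 6 h replicates 1 to 4, against 2.64 and 5.28 CPM in PBS 24 h and 22.6 and 29.8 CPM in PBS 0 h, so 6 h lay near PBS 0 h and far above PBS 24 h (log2 fold change 1.68 ± 0.25, adjusted p = 1.09e-05; adjusted p = 0.555 with PBS 0 h alone as the control). The time of day of each group is not given in the sources used here, and time of day and treatment cannot be told apart for these genes.

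Of 31 type I interferon stimulated genes 2 rose, against 9.72% of all tested genes, and none fell (median -0.02): Oasl1, of the antiviral OAS-like family, by 1.20 log2 units and Ifi204, a DNA sensor, by 0.41 log2 units. Of 16 GTPases of the interferon-gamma response 4 fell and none rose (median -0.51). Gbp8 had 26.8, 52.8, 156 and 133 CPM in 6 h replicates 1 to 4, against 305 and 230.4 CPM in PBS 24 h and 276 and 279 CPM in PBS 0 h. No 6 h library reached the PBS range, and replicates 1 and 2 were lowest (log2 fold change -1.56 ± 0.34, adjusted p = 0.00136). Gbp5 fell by 0.82 log2 units (adjusted p = 0.0142) and Irgm2 by 0.71 log2 units (adjusted p = 0.0187). Without both 6 h replicates 1 and 2 none of the 16 fell, and 2 fell without either of them alone. Ciita, the master regulator of MHC class II, fell by 1.89 log2 units (adjusted p = 0.013), with 3.74 to 12.1 CPM in 6 h libraries, against 12.9 to 54.4 CPM in PBS libraries.

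KCs at 6 h were next set against KCs 12 h after APAP (4 libraries). This comparison shares the 6 h libraries with that against PBS. Of 17080 genes 1041 differed (6.09%), 621 higher at 6 h (3.64%) and 420 lower (2.46%). With only the compared groups fitted 89 were called. The calls were 467 without 6 h replicate 1, 661 without 6 h replicate 2, 1655 without 6 h replicate 4, 673 without 12 h replicate 1 and 643 without 12 h replicate 2. The 12 h libraries differ from those of 6 h in their split over the sets, with 3 in set 1 and 1 in set 2. Of 31 type I interferon stimulated genes 24 were higher at 6 h than at 12 h and none lower (median 0.94, against -0.0011 over all genes). Ifit3, an antiviral protein, had 355, 135, 241 and 122 CPM at 6 h, against 23.6, 33.6, 35.3 and 47.8 CPM at 12 h. The 12 h libraries were all below the 6 h libraries (log2 difference 2.60 ± 0.30, adjusted p = 7.81e-07) and below the PBS libraries, which had 143 to 228 CPM. Ifit1bl1 had 64.5, 14.8, 11.1 and 5.10 CPM at 6 h, against 1.55, 1.21, 1.15 and 0.882 CPM at 12 h (log2 difference 4.31 ± 0.62, adjusted p = 2.68e-05). Of the 31, 19 were higher without 6 h replicates 1 and 2, 13 when only the compared groups were fitted and 3 in set 2 alone. Interferon-gamma GTPases were higher at 6 h in 9 of 16 (median 0.91), in 3 without 6 h replicates 3 and 4 and in 2 when only the compared groups were fitted. MHC class I and immunoproteasome genes were higher in 6 of 19 (3 without APAP 12 h replicate 3). None was lower in either list.

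Metallothionein and other genes also differed between 6 h and 12 h. Mt2 had 69.4, 9.87, 3.21 and 2.89 CPM at 6 h, against 1.99, 2.42, 2.30 and 1.72 CPM at 12 h, all 6 h libraries being above all 12 h libraries (log2 difference 3.34 ± 0.73, adjusted p = 0.00292), but without 6 h replicate 1 the adjusted p was 0.376. Lepr had 596, 191, 52.4 and 40.1 CPM at 6 h, against 31.4, 30.2, 36.7 and 4.73 CPM at 12 h (log2 difference 3.10 ± 0.61, adjusted p = 0.00136; adjusted p = 0.669 without replicates 1 and 2). Myom1, known from the M-band of muscle, had 32.4, 18.4, 14.5 and 12.3 CPM at 6 h, against 4.97, 2.88, 3.39 and 4.69 CPM at 12 h (log2 difference 2.28 ± 0.39, adjusted p = 0.000243). Lower at 6 h than at 12 h were Scd2, a fatty acid desaturase, with 109.7, 48.7, 93.7 and 97.8 CPM at 6 h, against 226, 277, 296 and 279 CPM at 12 h (log2 difference -1.62 ± 0.20, adjusted p = 1.24e-06), Dtx4, a ubiquitin ligase, with 8.93 to 26.5 CPM at 6 h, against 60.1 to 73.7 CPM at 12 h (log2 difference -1.73 ± 0.33, adjusted p = 0.000669), and AI427809 with 2.64 to 4.78 CPM at 6 h, against 10.7 to 18.9 CPM at 12 h (log2 difference -2.15 ± 0.32, adjusted p = 3.2e-05). None of the 3 overlapped. In set 2 alone the calls of Ifit3, Ifit1bl1, Myom1 and Dtx4 were lost (adjusted p = 0.131, 0.289, 0.27 and 0.22), and that of Dtx4 also without 6 h replicates 1 and 2 (0.0753). Lgals1, galectin 1, and Tnip3, an inhibitor of NF-kappaB, were also lower at 6 h. Lgals1 had 2.12 to 7.89 CPM at 6 h, against 12 to 21.5 CPM at 12 h (log2 difference -1.89 ± 0.45, adjusted p = 0.00666; adjusted p = 0.0508 without 6 h replicate 1). Tnip3 had 0.728 to 5.15 CPM at 6 h, against 14.3 to 29.5 CPM at 12 h (log2 difference -2.70 ± 0.78, adjusted p = 0.0273), and its adjusted p was between 0.0517 and 0.475 in the settings where it lost its call. Marco (log2 difference -1.11 ± 0.32, adjusted p = 0.0301) and Trem2 (log2 difference -1.31 ± 0.33, adjusted p = 0.00987) were lower at 6 h than at 12 h too. By list, 7 of 19 glucocorticoid genes were higher at 6 h (2 without APAP 6 h replicate 1, 3 without APAP 6 h replicate 2, and 0 without both), 7 of 29 lipid-associated macrophage genes were lower (2 without APAP 6 h replicate 1, 3 without APAP 6 h replicate 2), and 9 of 24 heat shock chaperones were lower. The chaperone count was 1 without APAP 12 h replicate 2 or APAP 6 h replicate 1, 2 without APAP 6 h replicate 2, 5 without APAP 12 h replicate 1.

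Over the whole series of times, many of these genes peaked at 6 h. Of the 515 genes at least 2-fold higher than PBS at 6 h, 293 (56.9%) had their highest group mean at 6 h, 163 (31.7%) at 12 h and 31 (6.02%) at 24 h. Of the 426 lower by 2-fold, 259 (60.8%) had their lowest mean at 6 h. The 6 h values chose these genes, so the shares are a description. Hmox1 averaged 6063 ± 2854 CPM at 6 h, 8096 ± 4518 CPM at 12 h and 3489 ± 1909 CPM at 24 h, with 6 and 12 h overlapping. Marco averaged 2039 ± 492 CPM at 6 h, 4387 ± 924 CPM at 12 h, 6080 ± 3076 CPM at 24 h and 2887 ± 349 CPM at 36 h. Mmp12 averaged 574 ± 394 CPM at 6 h, 2101 ± 443 CPM at 12 h and 2799 ± 2250 CPM at 24 h. Mt2 averaged 21.3 ± 32.2 CPM at 6 h, a mean led by replicate 1, and 2.11 ± 0.32 CPM at 12 h. Ifit3 averaged 213 ± 108 CPM at 6 h and 35.1 ± 9.94 CPM at 12 h, and was highest at 120 h with 355 ± 45.7 CPM (all ± SD, n = 4 at 6 and 12 h).

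**Figure D5:**
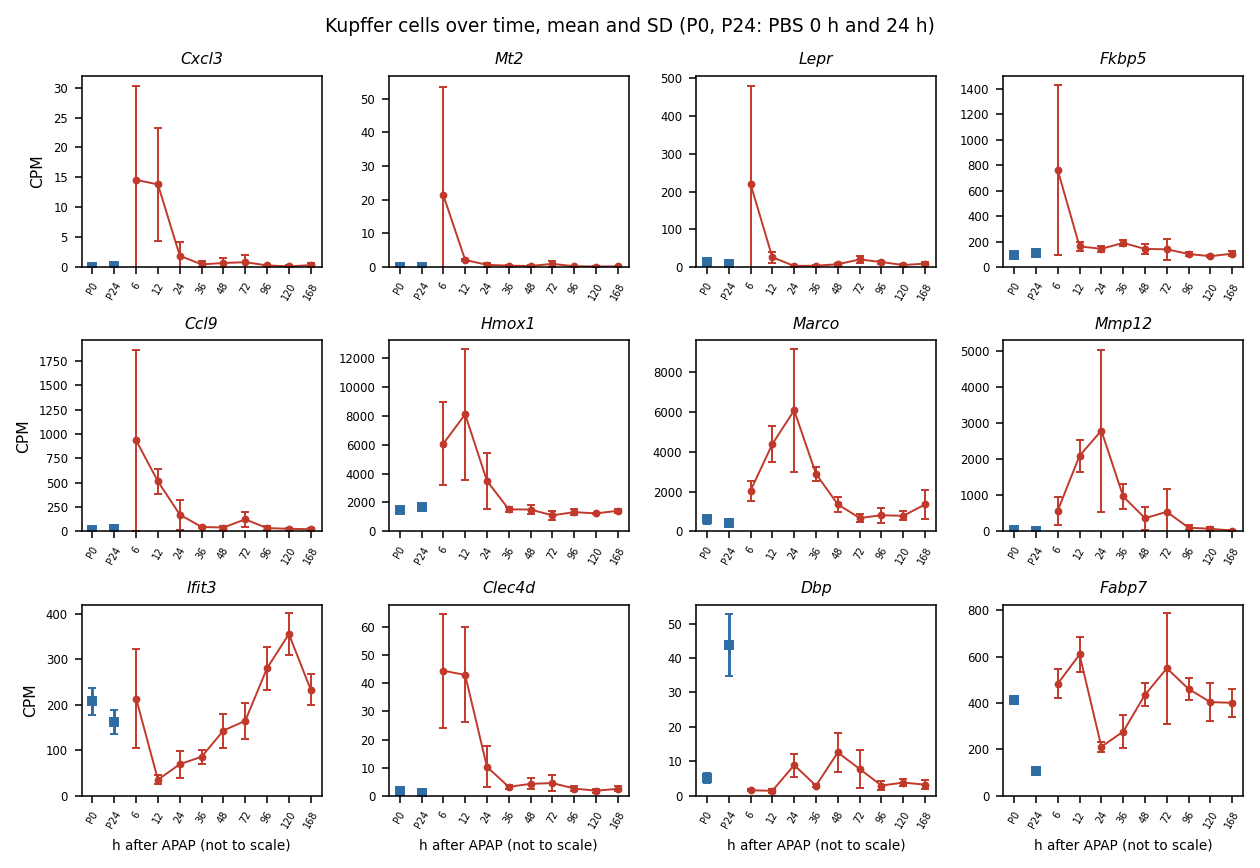
Mean CPM ± SD over libraries for 12 genes in KCs at 0 and 24 h after PBS (P0, P24) and 6 to 168 h after APAP, on a time axis not to scale, with error bars cut at 0. Mt2 and Lepr peak at 6 h, Marco and Mmp12 later, and Ifit3 is low at 12 h.

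The PBS groups differed from each other in 9 genes (0.0527%), 4 higher (0.0234%) and 5 lower (0.0293%) in PBS 24 h than in PBS 0 h, with 1145 (6.7%) at an unadjusted p below 0.05 and 24 called by DESeq2. Dbp had 50.2 and 37.4 CPM in PBS 24 h and 6.15 and 4.17 CPM in PBS 0 h (log2 difference 3.09 ± 0.61, adjusted p = 0.0324), and the chaperone genes Dnaja1 and Bag3 were higher in PBS 24 h too (log2 difference 1.86 ± 0.39, adjusted p = 0.0475 and 1.72 ± 0.34, adjusted p = 0.0324). Arntl had 2.64 and 5.28 CPM in PBS 24 h and 22.6 and 29.8 CPM in PBS 0 h (log2 difference -2.73 ± 0.37, adjusted p = 0.000116), Fabp7, a fatty acid binding protein, 98.4 and 114 CPM in PBS 24 h and 411 and 415 CPM in PBS 0 h (log2 difference -1.96 ± 0.29, adjusted p = 0.000279), and Tab1, a partner of the kinase TAK1, 7.91 and 8.51 CPM in PBS 24 h and 20.7 and 25.6 CPM in PBS 0 h (log2 difference -1.49 ± 0.31, adjusted p = 0.0457). Leaving out any 1 of the 4 libraries left 0 to 3 calls. The PBS group and the set cannot be told apart here. Fabp7 had 393 to 538 CPM at 6 h, against 98.4 to 415 CPM in PBS. At 6 h it was above PBS 24 h and overlapped PBS 0 h, so its call against PBS rests on PBS 24 h (adjusted p = 0.62 with PBS 0 h alone).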

How the data were processed

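Per the labels, the deposited values are counts of reads per gene, whole numbers that were not normalized. The mm10 genome, HISAT2 2.2.0, featureCounts 2.0.0, SAMtools 1.10 and FastQC 0.11.9 are named in the submitters' processing notes. The strand setting, the annotation release and any removal of duplicate reads are not given in the sources used here.

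All 54735 genes of the 48 libraries (15885336 to 26058698 counts each) were filtered with filterByExpr of edgeR 4.0.16 (R 4.3.3), which kept 17080 genes with no less than 99.94% of any library's counts. TMM factors set the library sizes used for CPM and for the fit. All 48 libraries entered 1 quasi-likelihood fit (glmQLFit, robust) with a coefficient per group. The comparisons were KCs at 6 h with the mean of both PBS groups (equal weights, log scale), KCs at 6 h with KCs at 12 h, and PBS 24 h with PBS 0 h. Fold changes can therefore differ from the ratio of CPM means, and those of genes near 0 in PBS depend on the prior count. Tests were 2-sided with Benjamini-Hochberg adjustment over all tested genes, and errors of fold changes are standard errors (SE). Intervals on sums of counts are exact at 95% and cover counting error only. No 2 libraries held identical counts. Same-numbered 6 h and 12 h libraries had correlations of their deviations from the group means of 0.196, -0.0295, 0.0318 and 0.293, so the numbers were not taken to pair samples.

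The members and the 47 gene lists (37 programs, 10 of other cell types) were chosen with earlier results of these data known. Genes were named by a rule: of the called genes that did not overlap between groups and averaged 10 CPM or more in the higher group, the 15 largest rises and 15 largest falls against PBS (5 and 5 against 12 h, 3 and 3 between PBS groups), passing over predicted genes, pseudogenes and immune receptor segments, plus a fixed set of 24 genes and up to 6 called members of each list in each direction. Fos, Ereg and Areg were named as members their sentences needed. Alternatives were DESeq2 1.42.0, RLE scaling, other filters, a fit on the compared groups only, replicate blocks, and each PBS group alone or both as 1 group. Further fits used the header set or the hepatocyte marker sum (of log2 CPM) as a covariate, used each set alone, or left out each library. Leaving out 6 h replicates 1 and 2, or 3 and 4, and blocking by header number were added after seeing the data. Positions are those of GENCODE M21, and promoters those of RefSeq on GRCm38.p6. In simulated counts for the comparison with PBS, the procedure called 71 of 100 genes given a 2-fold change. It called 96 of 100 given a 4-fold change (16510 genes, 2 false calls). These shares describe the simulated counts only. Whether they hold for the measured libraries, whose sets and replicates differed, was not tested. Nor was it tested for genes nearly undetected in PBS, such as Cxcl3, Mt2 and Slc7a11. Python 3.11.15, pandas 2.3.3, scipy 1.17.1 and matplotlib 3.10.9 were also used.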

Additional observations from a re-analysis of the deposited data

Results flagged for a closer look

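In 7 of 64 named genes, 6 h replicate 1 stood apart from the other 3 replicates of its group, by a gap to its nearest neighbour that exceeded Dixon's 95% critical share of the group's range. For independent groups of 4 normally distributed values, about 1 in 20 would be set apart in this way. The 64 genes share the same libraries, and many were named for large 6 h differences. That rate is therefore no measure for the 7. Replicate 1 was the highest in Cxcl3 (gap 0.858 of the range, at 38 CPM), Mt2 (0.895, 69.4 CPM), Nfil3 (0.883, 302 CPM), Ifit1bl1 (0.837, 64.5 CPM), Mt1 (0.83, 1009 CPM) and Txnrd1 (0.886, 1646 CPM). It was the lowest in Marco (0.895, 1303 CPM). The TMM factor of this library was 0.8021.

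In 4 of the 30 genes named by size against PBS, the level also differed between 6 h and 12 h after APAP in edgeR's test. In each the 6 h level was higher. Over all tested genes 6.09% were called, and 3.64% were higher at 6 h. The same 6 h libraries chose the 30 genes, so the count is a description. The log2 difference was 3.34 for Mt2 (adjusted p = 0.00292), 3.09 for Nfil3 (adjusted p = 0.0112), 3.10 for Lepr (adjusted p = 0.00136) and 1.78 for Mmp19 (adjusted p = 0.0129). Per library, Mmp19 had 382, 135, 33.3 and 26.4 CPM at 6 h, against 54, 34.2, 56.6 and 23.5 CPM at 12 h, and Nfil3 had 302, 39, 4.13 and 8.47 CPM at 6 h, against 9.17, 10.4, 4.85 and 16.9 CPM at 12 h, where 6 h replicate 3 was below all 12 h libraries and replicate 4 below 3 of the 4.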

How the results depend on the processing

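For KCs at 6 h against PBS, the genes called were 2586 (1661 higher, 925 lower). Counts stayed within 1.5 times of these with RLE scaling, DESeq2, other filters, both PBS groups as 1, and the set or hepatocyte sum as a covariate. A fit on the compared groups only gave 1189 (637 higher, 552 lower), PBS 0 h alone as the control 1601 (1019, 582), PBS 24 h alone 1487 (954, 533), set 2 alone 1381 (911, 470), and 6 h replicates 1 and 2 left out 1343 (900, 443). The lower calls were 1497 in set 1 alone and 1493 with 6 h replicates 3 and 4 left out. Leaving out each library in turn gave 1489 to 2706 calls, 940 to 1661 higher and 485 to 1045 lower. Fewer samples enter several of these fits, and the cause was not otherwise tested.

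For KCs at 6 h against 12 h after APAP, the genes called were 1041, against 89 in a fit on the compared groups only, 1573 by DESeq2, 3090 in set 1 alone, 34 in set 2 alone, 238 without 6 h replicates 1 and 2, 2965 without replicates 3 and 4, and 467 to 1655 with each library left out. Between PBS 24 h and PBS 0 h, the genes called were 9, against 117 in a fit on the compared groups only, 24 by DESeq2 and 0 to 3 with each library left out.

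With the replicate number of the labels as a block, calls were 3388 against PBS, 1248 against 12 h and 17 between PBS groups, and with the header number 2907 and 1239. The numbers were not taken to pair the samples.

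Of the 2586 genes called against PBS, 2514 kept their direction in set 2 alone and 2515 without 6 h replicates 1 and 2. The same libraries had chosen these genes, so the kept direction is a description. Called again in the same direction were 982 in set 2 alone and 988 without 6 h replicates 1 and 2. Turns of direction were counted only where a named gene was called in the main fit or in that setting. By that count the direction turned in 3. Ifit1bl1 was at -0.32 (log2) in set 2 alone and -0.038 without 6 h replicates 1 and 2. Tab1 was at -0.79 and Zbtb16 at -1.03 in set 2 alone. The cause was not tested. In every setting in which they were tested against PBS, Mt2, Mt1, Slc7a11, Ccl9, Clec4d, Mmp12, Lepr and Arc were called. So were Mmp19, Hmox1, Gclm, Srxn1, Txnrd1, Marco and Fkbp5. A setting whose filter left a gene out does not count for that gene. Among the named falls, Thrsp, Mup17, Car3, Gulo, Keg1, Cyp1a2, Sec14l2, Uhrf1, G6pc, Abcb11, Cyp8b1, Nudt7 and Inmt lost their call in set 2 alone and without 6 h replicates 1 and 2, as did the rises of Cxcl1, Cxcl2, Ddit4, Gda and Trem1. Depth limits the genes near 0 in PBS, whose fold has wide counting intervals.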

Other observations

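Some lysosomal and lipid genes also rose at 6 h. Of 31 lysosomal hydrolase and proton pump genes 10 were higher and 1 lower (median log2 fold change 0.15), but 5 without PBS 0 h replicate 2, 6 without PBS 24 h replicate 2. Gla, alpha-galactosidase, had 80.6, 73.3, 56.8 and 59.5 CPM in 6 h replicates 1 to 4, against 14.9 and 14.7 CPM in PBS 24 h and 20.6 and 15.1 CPM in PBS 0 h, without overlap (log2 fold change 2.06 ± 0.29, adjusted p = 4.54e-06). Npc1, which exports cholesterol from lysosomes, rose by 0.73 log2 units. Of 25 LXR target and lipid handling genes 6 were higher and 2 lower (median 0.37; 2 without PBS 24 h replicate 1 or 2 or PBS 0 h replicate 1, 3 without PBS 0 h replicate 2), with Plin2, a lipid droplet coat protein, up by 0.89 log2 units.

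Genes for taking up dead cells were split, 4 higher and 5 lower of 21 (median 0.06). Stab1, a scavenger receptor, rose by 1.04 log2 units, and Mertk, a receptor kinase for bridging proteins on dying cells, by 0.34 log2 units. Its relative Axl had 1905 to 2172 CPM in 6 h libraries, against 2329.9 to 2990.3 CPM in PBS libraries (log2 fold change -0.40 ± 0.11, adjusted p = 0.00735), and Gas6, the ligand of both, had 10.3 to 24.9 CPM in 6 h libraries, against 25.3 to 35.2 CPM in PBS libraries (log2 fold change -0.85 ± 0.23, adjusted p = 0.0101). The higher count was 2 without APAP 6 h replicate 1, and the lower count was 3 without PBS 24 h replicate 2 or APAP 6 h replicate 1 or 4 or PBS 0 h replicate 2. Of 15 MHC class II and costimulation genes 2 were higher and 1 lower, with Cd274, the checkpoint ligand PD-L1, at 322, 122, 162 and 139.6 CPM in 6 h replicates 1 to 4, against 74.6 and 56.6 CPM in PBS 24 h and 60.6 and 77.6 CPM in PBS 0 h (log2 fold change 1.47 ± 0.32, adjusted p = 0.00124). None of 19 MHC class I and immunoproteasome genes and none of 11 mitochondrially encoded genes was called. The shares over all tested genes were 9.72% higher and 5.42% lower. The median of the mitochondrial genes over PBS was 0.13, 0.12, -0.91 and -0.30 (log2 of CPM + 1) in 6 h replicates 1 to 4.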
